A study of Caenorhabditis elegans with 53 samples.

Results

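The srg, sru, srv and srxa genes are 4 of the many gene families that encode chemoreceptors in the nematode Caenorhabditis elegans. The members were all genes of the deposited count table whose name is 1 of these 4 family names followed by a number. There were 148 of them among 41897 genes, namely 61 srg, 40 sru, 30 srv and 17 srxa genes. Membership was set by name only, with no measured value, although earlier results of these data were known when the families were chosen. RNA of nuclei was sequenced, either from neuronal nuclei pulled down by a tag (the INTACT method, isolation of nuclei tagged in chosen cell types; called neuronal IP here) or from the preparation of nuclei before the pulldown (input). Every group carried the INTACT transgene otIs790, named UPN in the labels, and the control groups carried no other allele.

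Control neuronal IP comprised 4 libraries at larval stage L1 (8 ± 1 h after plating), 5 at L2 (21 ± 1 h), 6 at L4 (40 ± 2 h) and 7 of adults (53 ± 2 h). The inputs of the same stages comprised 4, 3, 4 and 5 libraries. Each replicate was a pool of about 600000 animals (L1, L2) or about 200000 animals (L4, adult). Mutants of heterochronic genes, which set when larval cells take on the fates of each stage, were sequenced as neuronal IP only. They were lin-4(e912) null at L1 (3 libraries, 8 ± 1 h) and in adults (4 libraries, 57 ± 2 h), lin-14 gain of function adults (5 libraries, 57 ± 2 h) and lin-28 gain of function adults (3 libraries, 53 ± 2 h). The labels name the lin-14 allele ot1087 in the growth protocol and e1087 in the genotype field, and they name the lin-28 allele lin-28(ot1088) in the first and lin-14(e1088) in the second. The adult mutants of lin-4 and lin-14 were older by the clock than adult controls, so genotype and hours after plating cannot be told apart in those comparisons. All pan-neuronal nuclei are pooled in a library, so a value is an average over every neuron, and fewer cells that express a gene cannot be told apart from less RNA per cell.

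Chemoreceptors of this kind are predicted G protein-coupled receptors, proteins that cross the membrane repeatedly, placed mostly in the cilia of sensory neurons, where they bind odorants, tastants or pheromones. They signal through G proteins to cyclic nucleotide-gated or TRP channels, and in the worm a single sensory neuron type expresses many receptor genes. The 4 families belong, with srx and srt, to the Srg superfamily. The few members with a known ligand or cell include srg-36 and srg-37, receptors for ascaroside pheromones in the ASI neurons. Reporters of srg-2 and srg-8 were seen in the ASK neurons, and a reporter of srg-13 in the PHA phasmid neurons.

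The members were small genes with a summed exon length of 534 to 1101 bases (median 976). This is close to the coding length, since 144 of 148 lengths were multiples of 3. In the coordinates of the deposited table, whose genome build is not given in the sources used here, 69 members lay on chromosome V, 43 on IV, 15 on III, 10 on II, 9 on X and 2 on I. Of the 148 members, 103 lay in 29 runs of neighbours no more than 10000 bases apart, and 12 runs held 4 or more members. Exons of 20 members overlapped those of another gene, 14 of them srv genes that in most cases overlapped short 21ur RNA genes. In srg-9, sru-13, sru-21 and srv-32 the overlapping gene was antisense, and because the strand setting of the counting is not given in the sources used here, reads of the pairs cannot be told apart. The treatment of reads that match several genes is not given either, so values of members with near-identical copies are uncertain. sru-33 is listed as a pseudogene by RefSeq (WBcel235).

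Levels are given as CPM, a gene's count scaled by the effective library size, that is the library's counts on the genes that passed the filter times its TMM factor (a factor that evens out composition). Ratios of pooled counts, named as such, use library totals instead. Total counts per library were 8582120 to 53251753 in neuronal IP and 9960845 to 41927678 in input. The members were read at low depth: their counts over the 38 control libraries summed to 8 to 8425 per gene, with a median of 347. A filter on low counts was passed by 124 members (51 srg, 34 sru, 24 srv and 15 srxa). The filter asked for enough counts in only as many libraries as the smallest group holds. A member could therefore pass it through a single group in which it was high. The 24 that failed it had 8 to 105 counts in all. Neuronal IP was checked against markers fixed for it: all 11 pan-neuronal genes and all 16 genes of ciliated sensory neurons were higher in neuronal IP than in input. Some non-neuronal lists were also higher by their sums. Sperm genes held 116 to 131 CPM in L1 neuronal IP and 15.9 to 21.4 in L1 input. Pharyngeal muscle genes held 3183 to 9737 at L2 against 1988 to 2085. At L1 the germline, intestine and body wall muscle sums were lower in neuronal IP, and those of glia, hypodermis and pharyngeal muscle overlapped. The share of counts that fell on neuron-enriched genes was 57.1 to 61.9% in L1 and 27.4 to 43.4% in adult neuronal IP.

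**Figure D1:**
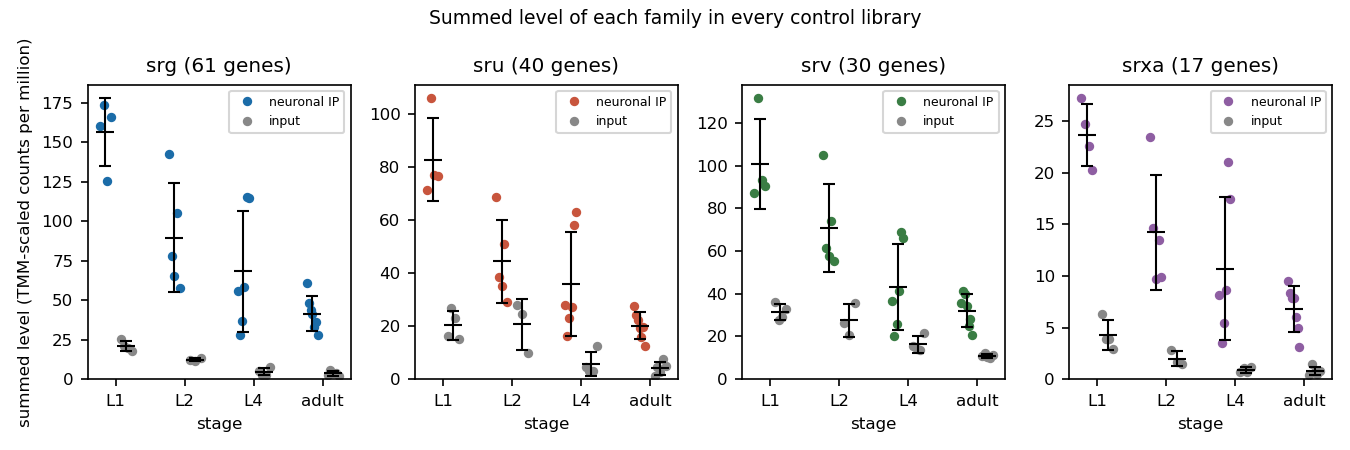
Summed level of each family, in CPM, in every control library by stage. Coloured points are neuronal IP and grey points input libraries, and black bars give the mean ± SD; the srg sum in neuronal IP was 156 ± 21.4 at L1 and 41.5 ± 10.9 in adults.

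The first question was whether the families are read in neuronal nuclei. Of the 124 members tested, 119 were higher in neuronal IP than in input and 2 were lower, with a median log2 fold change of 3.35. Over all 21040 genes tested, 41% were higher and 23.4% lower, with a median of 0.25. By family, 50 of 51 srg, 33 of 34 sru, 23 of 24 srv and 13 of 15 srxa genes were higher. The 3 members that were not called were srg-17, srxa-8 and srxa-4. srxa-4 had a log2 fold change of -0.12, and its L1 inputs held 1.54, 0.334, 1.6 and 0.06 CPM. No usable standard error could be derived for srxa-4, since its F statistic was near 0. In 38 members at least 1 group held no count, and with these set at the limit that 3 counts over the group would give, the median was 3.04. Without the filter 128 of 148 members were higher and 2 lower, with a median of 2.8. Of 34282 genes 8416 were then higher and 8013 lower, with a median of 0.27.

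The largest fitted rises were those of srg-32 (log2 fold change 5.06 ± 0.57 SE, edgeR adjusted p = 2.63e-09), sru-4 (4.97 ± 0.43, 9.78e-12) and sru-8 (4.77 ± 0.49, 3.95e-10). They were followed by srg-48 (4.65 ± 0.51), srg-3 (4.58 ± 0.67) and srxa-2 (4.49 ± 0.49). Several of these had inputs without a single count, for example srg-32 at L4, srg-3 at L2 and sru-4 in adults, where the fitted size depends on the prior count of the model. The members with known cells were higher in neuronal IP by a log2 fold change of 3.80 ± 0.28 (srg-36), 4.28 ± 0.42 (srg-37), 3.88 ± 0.30 (srg-2), 3.76 ± 0.44 (srg-8) and 4.01 ± 0.49 (srg-13).

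The members srv-1 and sru-40 went the other way. srv-1 stood at 24.3, 13.1, 13.9 and 23.6 CPM in the L1 inputs and at 4.22, 3.5, 3.84 and 6.07 in L1 neuronal IP, so the groups did not overlap. In adults its inputs held 5.82 to 7.67 and neuronal IP 2.32 to 8.54 (median 7.03) CPM, and these overlapped. Over the 4 stages its log2 fold change was -1.07 ± 0.19 (edgeR adjusted p = 7.32e-06). sru-40 stood at 7.53, 11.7, 11.2 and 6.42 CPM in the L1 inputs and at 0.95, 1.58, 1.89 and 3.27 in L1 neuronal IP. Its L2 inputs were at 20.5, 18.2 and 2.61, and its adult inputs at 0.183, 0.445, 0.108, 5.94 and 3.78, so libraries of 1 group differed widely. Its log2 fold change was -1.69 ± 0.45 (edgeR adjusted p = 0.00125). Both calls held in every alternative that was run.

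**Figure D2:**
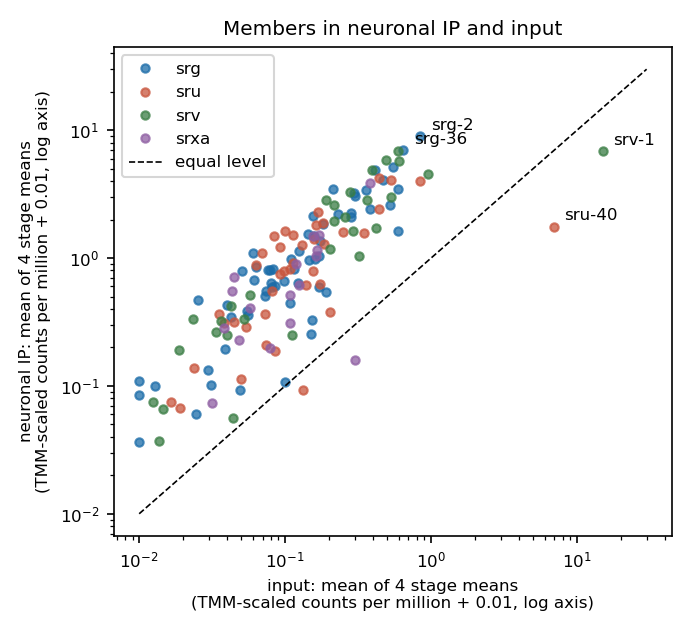
Each of the 148 members by its level in input (x) and in neuronal IP (y), as the mean of the 4 stage means in CPM plus 0.01, both on log axes, coloured by family. Nearly all points lie above the dashed line of equal level, and srv-1 and sru-40 lie below it at the highest input levels.

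Levels per length differed widely among members. On the scale of RPKM, that is CPM per kilobase of exon length, averaged over the 4 control stages of neuronal IP, srg-2 had the highest level at 9.10, followed by srv-1 at 7.34, srg-36 at 7.02 and srv-14 at 6.92. The next srv gene was srv-5 at 5.80, and the next srg gene srg-7 at 5.05. The highest sru genes were sru-47, sru-1 and sru-2 at 4.23, 4.13 and 3.92, and the highest srxa genes srxa-15, srxa-5 and srxa-14 at 3.95, 1.59 and 1.58. Of the 148 members, 85 had a mean of at least 1 CPM in L1 neuronal IP, 59 at L2, 49 at L4 and 28 in adults.

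From L1 to adult the level of all 4 families in neuronal nuclei went down. The summed level of all members was 364 ± 50.8 CPM at L1 (SD, n = 4), 219 ± 75.9 for L2 (n = 5), 158 ± 84.5 for L4 (n = 6) and 101 ± 24.7 for adults (n = 7). The L1 libraries ranged from 318 to 436 and the adult libraries from 64 to 134, with no overlap. As a share of all counts of a library, without the TMM factor, the members made up 0.0307 to 0.04% at L1 and 0.00563 to 0.0122% in adults, which did not overlap either. Among all 148 members, the highest stage mean was the L1 mean in 114, the L2 mean in 12, the L4 mean in 19 and the adult mean in 3. Among the 124 that passed the filter these counts were 101, 9, 13 and 1. The matching share over all genes was not taken. In the inputs the sum also stood lower with stage, at 77.0 ± 6.65, 62.6 ± 5.75, 27.5 ± 10.6 and 19.3 ± 3.51 CPM.

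By edgeR, 79 of 124 members were lower in adult than in L1 neuronal IP and 1 was higher, with a median log2 fold change of -1.88. Over all genes tested 29.6% were lower and 23.8% higher, with a median of -0.21. By family, 32 of 51 srg genes were lower (median -2.02), 22 of 34 sru genes (-1.86), 17 of 24 srv genes (-1.85) and 8 of 15 srxa genes (-1.65). A member could pass the filter through its L1 libraries alone. Without the filter 66 of 148 members were lower and 1 higher, with a median of -1.45. Of 34282 genes 5615 were then lower and 6062 higher, with a median of -0.06.

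The deepest falls with reads at both ends were in srg-14, srg-66, srxa-9, sru-24 and srg-22, chemoreceptor genes for which no ligand is given here. srg-14 stood at 10.8, 14.7, 7.73 and 10.1 CPM at L1 and at 2.43, 1.72, 1.28, 4.55 and 1.41 at L2. It was at 0 to 0.825 (median 0.339) at L4 and at 0.0465 to 0.516 (median 0.188) in adults. Every L1 library was above every L2 library, and every L2 library above every L4 and adult library. Its log2 fold change from L1 to adult was -5.67 ± 0.57 (edgeR adjusted p = 3.93e-10).

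srg-66 followed the same course, with 4.54, 5.49, 3.49 and 5.83 CPM at L1 and 0.869, 0.394, 0.656, 1.28 and 0.757 at L2. At L4 it held 0 to 0.391 (median 0.155) and in adults 0.0645 to 0.235 (median 0.186), so it was low from L4 on. Its log2 fold change was -4.93 ± 0.59 (edgeR adjusted p = 3.56e-08). sru-24 fell by 4.46 ± 0.64 and srg-22 by 4.01 ± 0.54 on the log2 scale (edgeR adjusted p = 5.33e-07 and 1.94e-07). srxa-9 fell by 4.57 ± 1.03 (0.00056), although its L1 libraries were uneven, at 1.37, 1.65, 0.744 and 0 CPM. Over the 22 control neuronal IP libraries the log2 level of srg-14 was most like that of srg-66 (Pearson r = 0.96) and sru-24 (0.95), and that of srg-66 most like srg-14 and srg-62 (0.91). These libraries share stage, depth and neuronal share, so the coefficients are a description.

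srxa-4 had no count in any of the 7 adult neuronal IP libraries, against 0.528, 0.137, 0.802 and 0.117 CPM at L1. With 3 counts over the adult libraries as the limit, the pooled counts at L1 were at least 26.7-fold higher. The fitted log2 fold change of the stage test was -6.1 (edgeR adjusted p = 0.000515). Since srxa-4 was not called higher in neuronal IP than in input, its L1 reads are not shown to come from neurons. Its levels were most like those of srg-1 (r = 0.65) and sru-24 (0.63). The single riser was srxa-8, which had 1 count over the L1 libraries and 39 over the adult ones. That is a ratio of pooled counts per library total of 11.2 with a counting interval of 1.9 to 454 (exact binomial, 95%). Its call (edgeR adjusted p = 0.0397) was lost without any 1 of 6 libraries, L1 1, 3 and 4 and adult 4, 6 and 7, with adjusted p values from 0.0502 to 0.105.

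**Figure D3:**
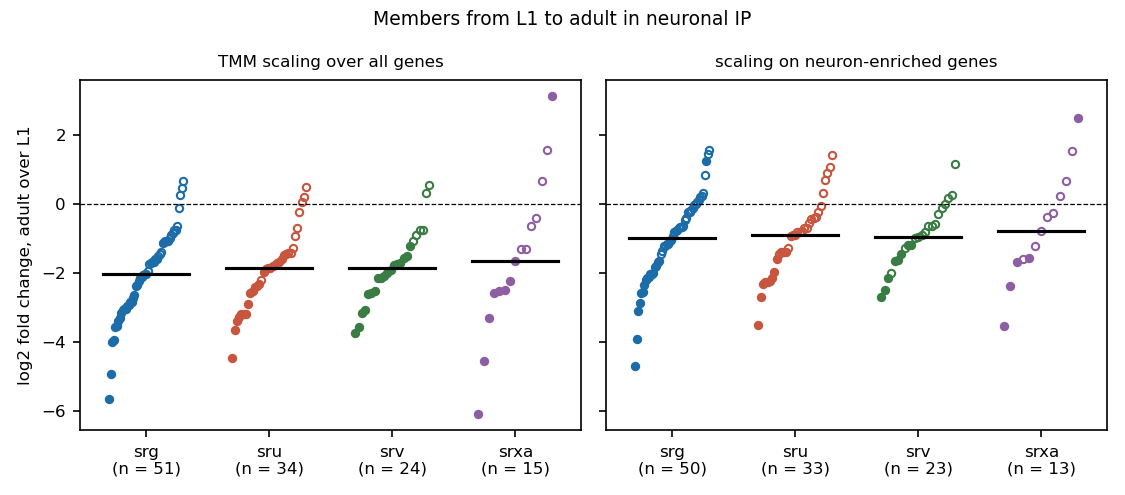
Log2 fold change of each tested member from L1 to adult in neuronal IP, by family, with scaling over all genes (left) and on neuron-enriched genes (right). Filled points were called at an edgeR adjusted p under 0.05, open points were not, and black lines are family medians; the median of all members is -1.88 on the left and -0.91 on the right. The lowest point on the left is srxa-4, which had no adult count.

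Other RNA moved with age in the same libraries. From L1 to adult all 12 germline and oocyte genes rose and their sum went from 26.8 to 38 up to 1394 to 3122 CPM, while 8 of 11 intestine genes rose (1399 to 2046, then 32831 to 82587). None of these markers was at 0 in either group. All 16 ciliated neuron genes fell, with a median log2 fold change of -1.74, as did 8 of 11 pan-neuronal genes (-0.85). The comparison was repeated with scaling on the 8632 neuron-enriched genes, those called higher in neuronal IP in these same libraries, 119 members among them. This scaling cannot even out a change in the share of sensory neurons among neurons, and such a change was not tested. On this scale 41 of 119 members were lower and 2 higher, with a median of -0.91. Over the neuron-enriched genes 20.7% were lower and 17.7% higher. All 41 were among the 79. srg-14 (-4.71 ± 0.45), srg-66 (-3.91 ± 0.53), srxa-9 (-3.55 ± 0.96), sru-24 (-3.51 ± 0.56), srg-3 (-3.10 ± 0.78) and srg-22 (-2.87 ± 0.47) fell most on that scale. The risers were srg-27 (1.24 ± 0.50, edgeR adjusted p = 0.0438) and srxa-19 (2.50 ± 0.81, 0.0139). The counts of all 148 members, 119 of them neuron-enriched, came to 0.0525 to 0.067% of the counts on neuron-enriched genes at L1 and to 0.0205 to 0.0319% in adults. With adult libraries 1 to 3 alone 46 members were lower and none higher, against 17.9% lower and 17% higher over all genes. With libraries 4 to 7 alone 77 were lower and 1 higher, against 27.9% and 27.8%.

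Members lower in adults lay on all 6 chromosomes that hold members. Runs of neighbours differed in their counts, and those named here were chosen after their values were seen. In the run of 9 srg genes on chromosome III (srg-8 to srg-3), 8 were lower, from srg-3 with a log2 fold change of -3.96 to srg-2 with -1.60, and srg-9 at -1.51 was not called (edgeR adjusted p = 0.146). In the run of 9 srv genes on IV from srv-28 to srv-25, all 7 tested were lower (-3.75 to -1.70), as were all 5 of the run sru-2, sru-1, sru-6, sru-3 and sru-4 (-3.20 to -1.70). All 4 of the run srg-21 to srg-24 on II were lower (-4.01 to -2.02). In the run sru-26, sru-20, sru-19, sru-18 and sru-17 on IV none of 5 was called (-2.21 to 0.49), nor any of the 3 tested in the run that holds srg-27 on V (-1.07 to 0.27). By chromosome, 31 of 56 tested members on V were lower, 22 of 34 on IV, 10 of 15 on III, 7 of 9 on II, 7 of 8 on X and 2 of 2 on I. Neighbouring members are not independent measurements, and no test of the differences between runs was made.

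The related genes gave similar counts in the same comparison. Of the srx and srt genes, 73 of 105 tested were lower and none higher (median -2.18), and of the other chemoreceptor families 374 of 639 were lower and 11 higher (-1.79). Of 37 genes for the transduction and trafficking of receptors, among them G protein subunits, channels and guanylyl cyclases, 31 were lower and 1 higher (-1.77). The difference between these lists and the members was not tested.

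Between successive stages fewer members passed the test. From L1 to L2, 3 of 124 were lower and none higher, against 0.604% lower and 2.52% higher over all genes, and the median was -0.86. They were srg-66 (-2.61 ± 0.61, edgeR adjusted p = 0.012), srg-14 (-2.25 ± 0.55, 0.0168) and sru-13 (-2.17 ± 0.61, 0.0435). Without L1 library 2, L2 library 3 or L2 library 5, srg-66 was the 1 member called. DESeq2 called 11 members lower and none higher, against 2.95% and 4.15% over all genes.

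From L2 to L4, 8 of 124 members were lower and 1 was higher, against 9.11% and 16.3% over all genes, with a median of -0.50. srg-36 fell most (-2.95 ± 0.41, edgeR adjusted p = 1.8e-06). It was followed by srg-17 (-2.79 ± 0.98, 0.0321), srg-38 (-2.65 ± 0.68, 0.00297), srg-14 (-2.46 ± 0.53, 0.000519), srg-66 (-2.08 ± 0.59, 0.00767) and sru-24 (-1.98 ± 0.61, 0.0133). srv-28 and srv-14 fell by 1.40 ± 0.45 and 1.23 ± 0.45. The riser srg-27 stood at 3.18, 2.61, 1.10, 1.09 and 1.16 CPM at L2 and at 3.22 to 10.2 (median 5.14) at L4, and at 1.58 to 4.47 (median 2.21) in adults. Every L4 library was above every L2 library, by a log2 fold change of 1.63 ± 0.56 (edgeR adjusted p = 0.0279). Leaving out any of L2 libraries 3, 4 or 5 or L4 library 6 took its adjusted p to 0.0578 to 0.0663, and any of 6 libraries took that of srg-17 to as high as 0.0756. DESeq2 called 10 members lower and 1 higher, against 9.14% and 18.6% over all genes. With scaling on neuron-enriched genes srg-27 rose by 2.10 ± 0.48 and 4 members fell, against 5.43% higher and 2.77% lower over those genes.

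From L4 to adult 10 of 124 members were lower and none higher, against 14.2% and 18.6% over all genes, with a median of -0.72. The falls were srxa-4, srg-3 (-2.72 ± 0.80, edgeR adjusted p = 0.00853), sru-3 (-2.01 ± 0.47, 0.000949), sru-38 (-1.91 ± 0.74, 0.0457), sru-2 (-1.89 ± 0.60, 0.014) and srg-53 (-1.48 ± 0.56, 0.0384), and then srg-22, sru-4, srg-25 and srg-6. The L4 counts of srxa-4 all came from L4 library 4, so without it both groups were at 0 and no fold can be given. DESeq2 called 34 members lower and none higher, against 23.2% and 15.4% over all genes. sru-38 and srg-53 each lost the call without any 1 of several libraries (8 and 6 of them, adjusted p up to 0.21 and 0.148). With neuron scaling 4 members were lower and 1 higher, srg-36 (0.92 ± 0.31, edgeR adjusted p = 0.0345), against 6.64% lower and 7.63% higher over those genes.

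Both of these steps depended on which L4 libraries were used. L4 libraries 1 to 3 held 67.9 to 129 CPM over the members and libraries 4 to 6 held 135 to 263. Beside this, 28.2 to 40.4% and 34.1 to 53.5% of counts fell on neuron-enriched genes, and hypodermis and cuticle genes summed to 5426 to 7764 and 1081 to 2518 CPM. With L4 libraries 1 to 3 alone 21 members were lower from L2 to L4 and none higher, against 10.7% lower and 20.5% higher over all genes. With libraries 4 to 6 alone 2 were lower and none higher, against 2.82% and 10.6%. From L4 to adult 2 were lower and 2 higher with libraries 1 to 3 (13.8% and 13.3% over all genes), and 33 lower and none higher with libraries 4 to 6 (14.6% and 14.7%). The part of sample make-up in this was not tested.

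The ascaroside receptors are given singly. srg-36 stood at 10.7, 11.5, 6.30 and 10.7 CPM at L1 and at 24.3, 9.40, 14.5, 12.3 and 7.16 at L2. It dropped to 0.865 to 3.17 (median 1.63) at L4 and held 1.86 to 6.58 (median 2.52) in adults. Its L1 and L2 libraries overlapped, and all of them were above every L4 library. From L1 to adult it fell by 1.71 ± 0.40 on the log2 scale (edgeR adjusted p = 0.000609), and by 0.79 ± 0.32 with neuron scaling (0.0486). srg-37, its neighbour on X, held 5.38, 2.54, 2.63 and 6.12 CPM at L1 and 4.34, 1.28, 0.863, 1.80 and 1.97 at L2. It stood at 0.314 to 3.63 (median 0.744) at L4 and at 0.585 to 1.73 (median 0.662) in adults, where all libraries were below those of L1. It fell by 2.04 ± 0.57 from L1 to adult (edgeR adjusted p = 0.00321) and by 1.16 ± 0.46 with neuron scaling (0.0451). With adult libraries 1 to 3 alone its change of -1.61 was not called (edgeR adjusted p = 0.0871). Its change from L2 to L4 of -0.74 ± 0.56 was not called (adjusted p = 0.372). The difference between the courses of the pair was not tested.

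Of the members with ASK or PHA reporters, srg-2 stood at 18.8, 14.1, 14.7 and 10.6 CPM at L1 and at 2.14 to 8.89 (median 3.75) in adults. These groups did not overlap, with a log2 fold change of -1.60 ± 0.44 (edgeR adjusted p = 0.0029). It was not called with neuron scaling (-0.67 ± 0.36, adjusted p = 0.134) or with adult libraries 1 to 3 alone (-1.14, adjusted p = 0.0931). srg-8 changed by -2.23 ± 0.60 (0.00249), and by -1.23 ± 0.53 with neuron scaling, where it was not called (0.0635). srg-13 fell by 3.05 ± 0.64 (0.000203) and by 2.02 ± 0.55 with neuron scaling (0.00386).

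**Figure D4:**
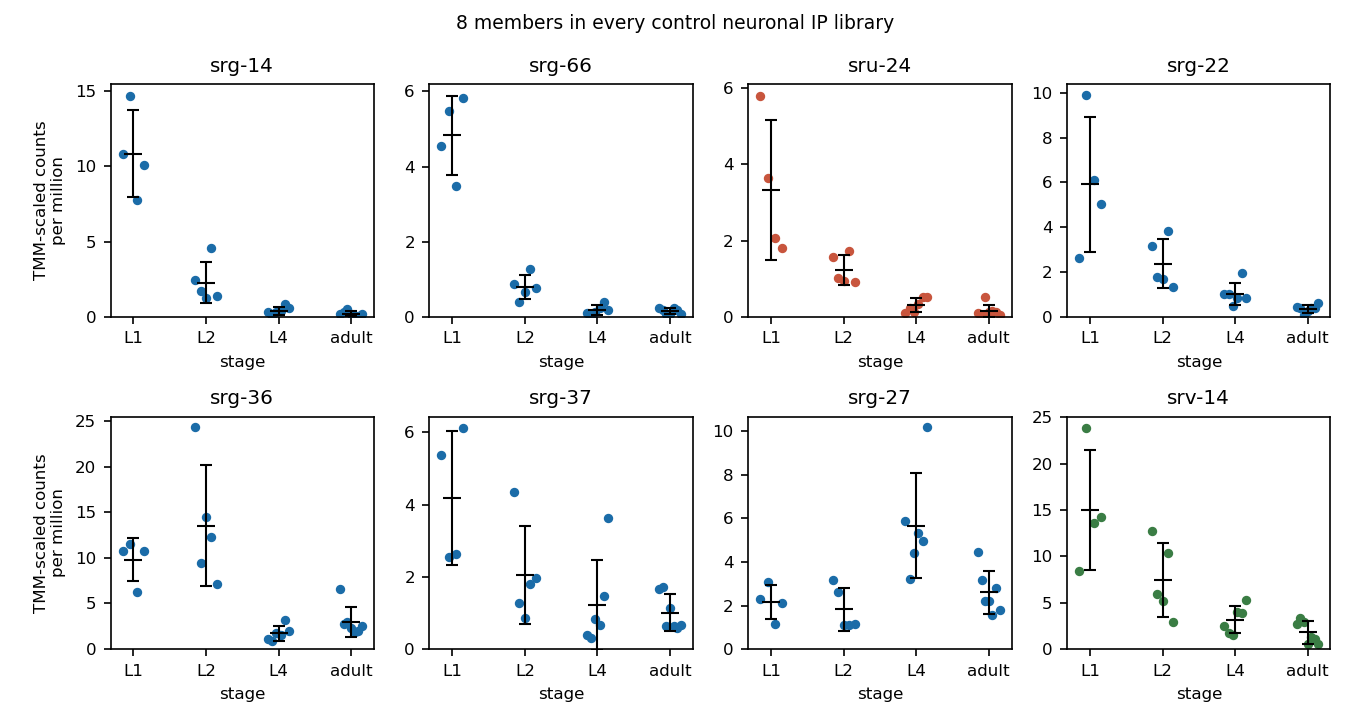
Level of 8 members in each control neuronal IP library by stage, in CPM on axes that start at 0; points are libraries and black bars the mean ± SD. srg-14 and srg-66 have lower means at each stage up to L4, sru-24 and srg-22 are low by the adult stage, srg-36 drops between L2 and L4, and srg-27 is highest at L4.

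The log2 ratio of neuronal IP to input was also compared between L1 and adult. It was higher in adults in 4 of 124 members and lower in none, against 8.32% and 7.79% over all genes, with a median difference of 0.59. The 4 were srv-1 (1.97 ± 0.53, edgeR adjusted p = 0.0125), srg-2 (2.12 ± 0.73, 0.0427), sru-4 (3.21 ± 1.04, 0.0342) and sru-13 (3.67 ± 1.15, 0.0295). For srg-2 the ratio of pooled counts per library total in neuronal IP to input was 6.34 at L1 and 39.4 in adults, where the inputs held 15 counts in all. For srv-1 the ratio went from 0.228 to 1.14, from below input at L1 to near it in adults. sru-4 and sru-13 had no count in any adult input, so that neuronal IP was at least 18.5-fold and 23.7-fold higher, against ratios of 6.35 and 7.23 at L1. The reads of sru-13 cannot be told apart from those of an antisense gene. Without L1 input library 3 the count was 1, and it was 2 without L1 neuronal IP library 3 or adult input library 1, 2 or 3. With neuron scaling 6 were higher and 2 lower (srv-25 and srv-7), against 12.8% and 15% over neuron-enriched genes.

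The mutants ask whether the stage course depends on the heterochronic genes. The microRNA lin-4 represses lin-14, which encodes a transcription factor of early larval stages, and lin-28, which encodes an RNA-binding protein of the same pathway. Values come from a table of 7974 genes that the authors had adjusted to a common library size, divided here by a median-ratio factor. It holds 124 members, of which 100 were high enough to test (43 srg, 28 sru, 18 srv and 11 srxa genes). Of the markers it holds all 11 pan-neuronal and all 16 ciliated neuron genes. It holds 0 of the listed germline, hypodermis, intestine and body wall muscle genes. In the mutant comparisons, shares over all genes are shares of this set, which differs from the 21040 genes of the control tests. The filter asked for a value of at least 10 in any 3 of 26 libraries. A member could therefore pass through a group outside a comparison. lin-4 itself was listed at 0 in all 7 lin-4 null libraries and at 2.39 to 31.7 in the controls. lin-14 RNA did not pass the test in lin-14 mutants (log2 fold change -0.12 ± 0.15, limma adjusted p = 0.637), and lin-28 is not in this table, so the gain of function labels could not be checked.

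The adult mutants were compared with adult controls, first by the members' sum, for which no test was made. The summed size-adjusted level was 1427 ± 158 in adult controls (SD, n = 7), 2029 ± 226 in adult lin-4 null (n = 4), 2255 ± 353 in lin-14 gain of function (n = 5) and 1340 ± 239 in lin-28 gain of function (n = 3). Controls ranged from 1230 to 1653, lin-4 null from 1697 to 2198 and lin-14 gain of function from 1959 to 2856, so neither mutant overlapped the controls. Ciliated neuron genes stood at 8117 to 10775 in adult controls, 10599 to 15382 in lin-4 null and 8322 to 13296 in lin-14 gain of function, and their part in the result was not tested. At L1 the members summed to 2407 ± 208 in controls (n = 4) and 2199 ± 262 in lin-4 null (n = 3).

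By limma 6 of 100 members were higher in adult lin-4 null neurons and none lower, against 4.19% and 3.65% over 6157 genes, and 20 were higher and none lower in lin-14 gain of function, against 8.75% and 10.5%. The medians were 0.51 and 0.54, and those of all genes 0.01 and 0.05. With only the compared groups filtered and fitted, 11 of 61 members were higher in lin-4 null and 15 of 68 in lin-14 gain of function, and 0 lower. Over all genes 299 of 5177 and 361 of 5395 were then higher, and 400 and 588 lower. By family 7 of 43 srg, 5 of 28 sru, 6 of 18 srv and 2 of 11 srxa genes were higher in lin-14 gain of function. In both comparisons the adult controls are the same 7 libraries, which are also the adult end of the stage comparison, so the lists of called members are not independent of each other. The related srx and srt genes had 25 of 78 higher and 1 lower in lin-14 gain of function (median 0.66), the other chemoreceptor families 90 of 479 higher and 4 lower (0.49), and the transduction list 15 of 34 higher and 2 lower (0.45).

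srv-28, the first gene of the long srv run, changed most in lin-14 gain of function. Its size-adjusted level was 15.6 to 40.3 (median 27.1) in adult controls, 67.8, 68.8, 60.4 and 48.6 in adult lin-4 null and 98.6, 119, 69.4, 57.2 and 95.9 in lin-14 gain of function. Neither mutant overlapped the adult controls, and L1 controls stood at 43.3, 65.8, 50.3 and 57.3. It was higher by a log2 fold change of 1.60 ± 0.26 in lin-14 gain of function (limma adjusted p = 0.000139) and 1.12 ± 0.28 in lin-4 null (0.0116).

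sru-2 stood at 6.67 to 22.7 (median 12.9) in adult controls and at 22.4, 55.5, 44.8, 32.8 and 35.4 in lin-14 gain of function, with 1 library inside the control range (1.57 ± 0.37, limma adjusted p = 0.00496). srg-29 went from 4.48 to 16.7 (median 8.60) to 28.5, 34, 44.8, 14.8 and 27, again with 1 library inside it (1.56 ± 0.37, 0.00496). sru-3 stood at 8.60 to 21.7 (median 11.2) in controls, 47.6, 30.1, 15.4 and 40.5 in lin-4 null and 34.6, 60.3, 22.8, 18.0 and 36.3 in lin-14 gain of function. In each mutant 1 library lay within the control range, and the log2 fold changes were 1.24 ± 0.34 (limma adjusted p = 0.0216) and 1.28 ± 0.32 (0.00664). The next largest rises in lin-14 gain of function were sru-29 (1.24 ± 0.34) and srv-24 (1.16 ± 0.34).

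The other members called in lin-4 null were sru-1, srg-13, srxa-15 and srg-15. sru-1 stood at 6.44 to 24.7 (median 17.3) in adult controls and at 37, 35.8, 26.4 and 35.4 in lin-4 null, which did not overlap (1.14 ± 0.32, limma adjusted p = 0.0233). srg-13, the gene with a PHA reporter, stood at 2.16 to 9.15 (median 4.92) and at 12.3, 14.1, 13.2 and 11.1, also without overlap (1.19 ± 0.38, 0.0483). srxa-15 was higher by 0.94 ± 0.27 (0.0287) and srg-15 by 0.83 ± 0.26 (0.0424). In lin-14 gain of function these 4 were higher by 0.85 ± 0.30, 1.10 ± 0.36, 0.97 ± 0.25 and 1.04 ± 0.24.

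The count in lin-4 null rested on few libraries: it was 1, namely srv-28, without any 1 of lin-4 null libraries 1, 2 or 4, and 3 without adult control library 5. The 5 other members each lost the call without any 1 of 3 to 9 libraries, with limma adjusted p values of up to 0.127. In lin-14 gain of function 9 members were called without library 2 of that mutant, and 7 were higher with adult control libraries 1 to 3 alone, against 6.36% higher and 5.81% lower over all genes. With all controls srv-24 reached an adjusted p of 0.0559 without library 2, and srg-13 up to 0.108 without any 1 of 4 libraries, adult control 3 and 5 and lin-14 gain of function 2 and 4.

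The ascaroside receptors were not called in any mutant. srg-36 stood at 35.6 to 67.6 in adult controls and at 83.4, 34, 87.1, 116 and 82.0 in lin-14 gain of function (0.75 ± 0.27, limma adjusted p = 0.0513), with 1 library below the controls and 4 above them. srg-37 had a log2 fold change of -0.80 ± 0.37 in lin-14 gain of function (0.13) and -0.31 ± 0.40 in lin-4 null (0.689). srg-2 gave 0.34 ± 0.27 (0.395) and 0.55 ± 0.28 (0.234).

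**Figure D5:**
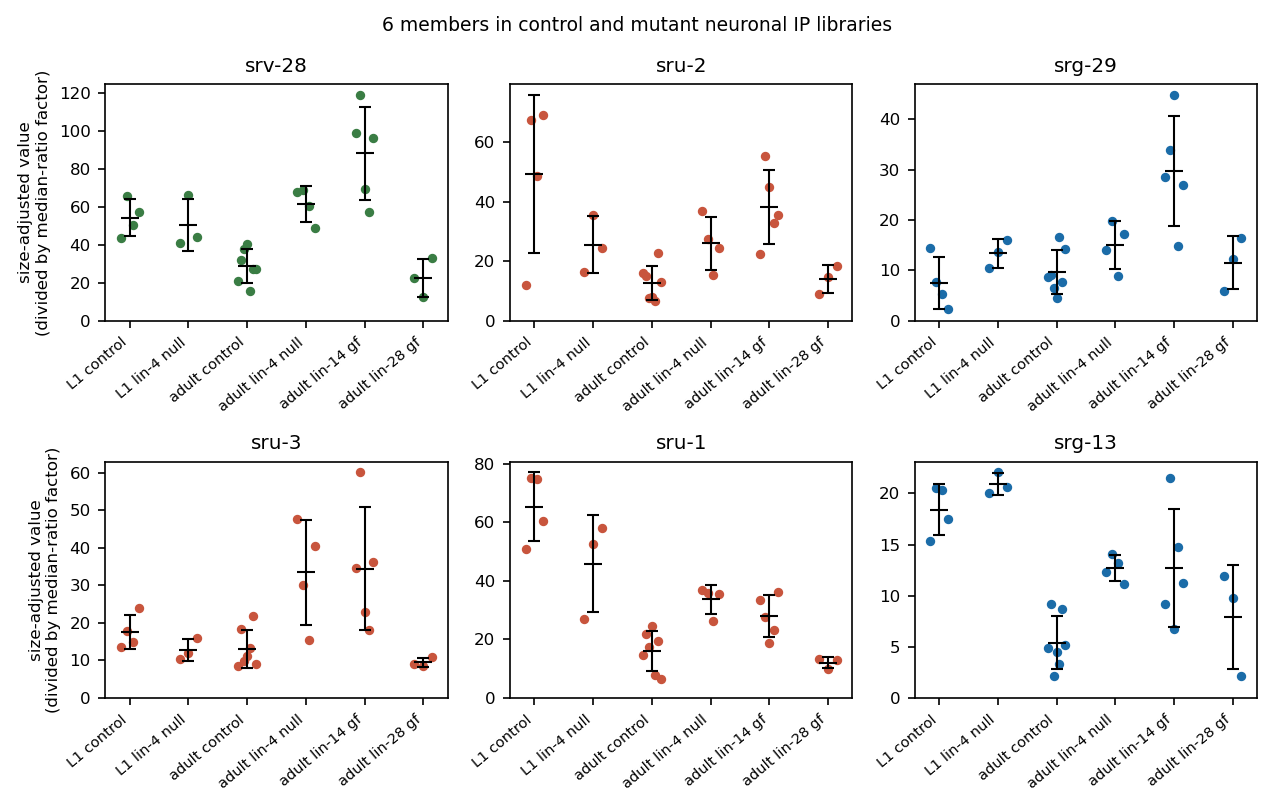
Size-adjusted level, divided by the median-ratio factor, of 6 members in each L1 and adult neuronal IP library of controls and mutants, on axes that start at 0; points are libraries and black bars the mean ± SD (gf is gain of function). srv-28 is above every adult control in each adult lin-4 null and lin-14 gain of function library.

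In lin-28 gain of function adults 0 of 100 members were called by limma, against 0.0162% higher and 0.0% lower over all genes, with 5 members at an unadjusted p under 0.05 and a median of -0.05. In L1 lin-4 null neurons 0 were called, against 0.0162% higher and 0.0487% lower over all genes, with 7 members at an unadjusted p under 0.05 and a median of -0.04. The difference between the lin-4 effect in adults and at L1 was called in 0 members, against 0.487% higher and 0.39% lower, with 19 members at an unadjusted p under 0.05 and a median of 0.40. The effect of lin-4 on the members is therefore not shown to differ between the stages. With L1 control library 1 or 3 left out the number called for this difference was 1, and with L1 lin-4 null library 1 left out it was 2. The percentages above are shares of genes called at the adjusted p. The share of all genes at an unadjusted p under 0.05 was not taken, so nothing is read from those member counts.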

How the data were processed

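The deposited counts are raw reads per gene, made by the authors with Subread and featureCounts per the submitters' processing notes (versions and build not given in the sources used here). The values of the deposited size-adjusted table count as a score, since the authors brought each library to a common sum (3998798 to 4000500) over 7974 genes and rounded. A deposited normalized table of the mutants holds a signal and served as an alternative only. The authors' gene table gives other values, lengths and coordinates; 9 of 879 member exon intervals matched WBcel235, so its build differs.

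Tests among the 38 control libraries used edgeR 4.0.16: the quasi-likelihood test, TMM scaling and filterByExpr with a minimum count of 10. Mutants were compared with limma 3.58.1 (R 4.3.3; trend, robust) on log2(value / median-ratio factor + 1), factors 0.67 to 1.44, for genes with at least 10 in 3 of 26 libraries. The fold change on that scale understates low genes. A member is called at a Benjamini-Hochberg adjusted p under 0.05 over all genes tested. Fold changes carry a standard error (SE). For edgeR it was worked back from the fold change and the F statistic of the test, so it is approximate. For limma it came from the fit itself. No label says whether replicates came from separate cultures; p-values therefore reflect only how these libraries varied, possibly for technical reasons. Counting intervals and limits cover counting error only.

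The members, lists and alternatives were chosen with earlier results of these data known. Named were members with known cells, the 3 highest per family by level per length, and up to 6 called rises and falls per comparison. Same-numbered neuronal IP and input libraries deviated together at L1 (r from 0.158), L4 (0.233) and adult (0.355) but not in every pair at L2 (0.076), as did L1 lin-4 null and L1 control libraries (0.145 to 0.318). Neuronal IP library 1 of L2 and library 1 of L4 were each closer to an input of another number. DESeq2 1.42.0 was an alternative. On simulated counts and values the tests were checked for known changes. These were set only in genes read more deeply than most members, so the check does not cover the depth of most members. Sequences were not analysed here.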

Additional observations from a re-analysis of the deposited data

Results flagged for a closer look

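Within groups of 4 to 10 libraries, 116 sets of values were examined for a library set apart by Dixon's criterion, and 10 were flagged; chance flags about 1 in 20 groups. L1 neuronal IP library 2 was highest in the summed level of the sru genes (106 CPM, the others 71.4 to 77.0) and the srv genes (132, the others 87.3 to 93.5). It was also highest for the sru genes in the size-adjusted table (603, the others 508 to 523), and there library 1 was highest for the srxa genes (204, the others 143 to 148). srg-36 was lowest in L1 neuronal IP library 3 (6.30 CPM, the others 10.7 to 11.5) and highest in adult neuronal IP library 1 (6.58, the others 1.86 to 2.97). srg-37 was highest in L4 neuronal IP library 6 (3.63, the others 0.314 to 1.48). sru-40 was highest in adult neuronal IP library 6 (2.63, the others 0.15 to 0.535) and in L4 input library 4 (8.51, the others 0.328 to 0.855). srg-66 was at 0.0572 CPM in adult input library 5 and at 0 in the other adult inputs.

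The log2 ratio of neuronal IP to input was higher in adults than at L1, by the edgeR interaction test, in srg-2 (by 2.12), sru-4 (3.21), sru-13 (3.67) and srv-1 (1.97). In srv-1 this took the ratio of pooled counts from 0.228, below input, to 1.14, near input.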

How the results depend on the processing

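Against input, the number of members called stayed within 1.5 times under all alternatives run. From L1 to adult it was 43 of 119 (2 higher) with neuron scaling, 40 of 93 with the replicate block and 46 of 123 with adult libraries 1 to 3 alone. With the block 3261 of 17653 genes were lower and 4253 higher. For the change of the contrast it was 8 of 119 with neuron scaling, 8 of 148 without a filter and 22 of 104 with the groups alone. Without a filter 3673 of 34282 genes were higher and 459 lower. With the groups alone all 22 members were higher, and so were 6893 of 19254 genes, with 217 lower and a median of 1.02. From L1 to L2 it was 11 of 124 by DESeq2 and 9 of 91 with the groups alone, all lower. With the groups alone 310 of 16770 genes were lower and 1047 higher. From L2 to L4 it was 5 with neuron scaling, 21 with L4 libraries 1 to 3 and 2 with libraries 4 to 6. From L4 to adult it was 24 with median-ratio (RLE) scaling, 5 with neuron scaling, 3 of 148 without a filter and 34 by DESeq2. It was 4 of 72 with the replicate block, 4 with adult libraries 1 to 3, 4 with L4 libraries 1 to 3 and 33 with libraries 4 to 6. Over all genes 4339 of 21040 were lower with RLE scaling and 2235 of 34282 without a filter. There were 1589 of 17234 lower with the block and 4987 of 20856 with adult libraries 1 to 3.

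In lin-4 null adults it was 10 of 103 without the median-ratio factor, 11 of 61 with the groups alone and 1 of 61 with the replicate block. All were higher, as were 567 of 6399, 299 of 5177 and 263 of 5177 genes. In lin-14 gain of function it was 33 of 103 without the factor, 32 of 103 in the deposited normalized table and 7 of 97 with adult control libraries 1 to 3. All were higher, as were 1385 of 6399, 1149 of 6313 and 390 of 6128 genes. In lin-28 gain of function it was 2 of 54 with the replicate block and 1 of 97 with adult control libraries 1 to 3. All were lower, as were 167 of 4907 and 209 of 6128 genes. The difference of the lin-4 effects gave 2 of 103 higher without the factor, against 104 of 6399 genes. With adult control libraries 4 to 7 it gave 1 of 100 lower, against 31 of 6132 genes. The cause of these changes was not tested. RLE scaling moved the median log2 fold change of all genes from -0.21 to -0.43 for L1 to adult, from -0.20 to -0.40 for L4 to adult, from 0.25 to 0.08 against input and from 0.16 to 0.01 for the change of the contrast, and leaving out the factor moved it to 0.23 for lin-4 null and 0.39 for lin-14 gain of function.

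Leaving out 1 library gave 116 to 125 called against input, 1 to 6 for the change of the contrast, 1 to 4 from L1 to L2, 6 to 15 from L2 to L4, 6 to 24 from L4 to adult and 65 to 80 from L1 to adult. It gave 1 to 8 for lin-4 null, 9 to 24 for lin-14 gain of function, 0 to 0 for lin-28 gain of function and L1 lin-4 null and 0 to 2 for the difference of the lin-4 effects. From L4 to adult the count was 24 without L4 library 2, 16 without L4 library 3 and 6 without L4 library 5 or adult library 2; from L2 to L4 it was 15 without L4 library 5. Samples of different stages, and adult mutants and controls, share only a number, so the block there tests no pairing; in the pairs that deviated together it changed no count by more than 1.5 times. The 58 called results for named members had 1493 alternatives with a value. Of these 1329 kept direction and call, 164 lost the call and 0 changed direction. Alternatives in which a member was not fitted or got no adjusted p are not counted, so low members have fewer. From L1 to adult srxa-9 had 14 and srg-14 had 19. For srxa-4 from L4 to adult, both groups were at 0 without L4 library 4 or with L4 libraries 1 to 3 alone. Depth limits the members most in input, where medians by stage lay between 0.0369 and 0.2 CPM.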
